A study of Mus musculus with 13 samples.

Results

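Among the protein-coding genes of transfected mouse retinal cells, 16 had a different estimated make-up of transcripts in the libraries with misexpressed Ikzf1. The members were chosen from these libraries by a rule on transcript shares. A gene other than Ikzf1 was eligible when its summed TPM, a level scaled for transcript length and library depth, averaged at least 10 in both RNA groups, which 8824 genes met. The share of a transcript is its TPM over the TPM of its gene in the same library, and the leading transcript is the one with the highest mean share in the controls. A gene was kept when the mean share of its leading transcript differed by at least 25 percentage points between the groups and the 4 control values did not overlap the 4 Ikzf1 values. The 16 members are 0.181% of the eligible genes, with a lower leading share in 13 (0.147%) and a higher one in 3 (0.034%). All of the values below that describe shares, transcript levels or gene levels come from the contrast that chose the genes, so they are descriptions and no test of them was made to support the choice. By mean share, another transcript led in the Ikzf1 libraries in 10 of the 16, the literal sense of an isoform switch. In the other 6 the leading transcript kept the highest mean share, narrowly in Samd10 with 45.9% against 45.8% for another transcript. The order in single Ikzf1 libraries could differ from that of the means in both sets.

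The RNA came from retinas of CD1 mice at postnatal day 0, labelled as retinal progenitor cells. In both groups the tissue was dissociated, the cells were transfected and cultured for 9 h, and GFP-positive cells were sorted. Libraries of the cells given Ikzf1 are written below as Ikzf1 libraries or as with Ikzf1. The control cells received GFP alone and the Ikzf1 cells received Ikzf1-IRES-GFP, with 4 biological replicates of 400000 and 300000 cells respectively. The promoter of the transfected constructs and the number of retinas pooled in a replicate are not given for the RNA libraries. Total RNA was depleted of ribosomal RNA and sequenced as paired reads of 50 cycles. The controls held 21.4 to 27.1 M estimated read pairs and the Ikzf1 libraries 24.5 to 30.5 M. The Ikzf1 gene, which encodes the zinc finger transcription factor Ikaros, took 0.00723 to 0.0091% of the reads of each control and 15.9 to 17.2% of each Ikzf1 library. It held 17.1 to 18.6% of the TPM of the Ikzf1 libraries, which lowers the TPM of every other gene there by construction but leaves the shares within a gene as they are. All 14 progenitor markers averaged at least 1 TPM over the libraries, and their summed level was 1476 to 1604 TPM in the controls and 1038 to 1123 with Ikzf1, with 2 called higher and 8 lower by edgeR (adjusted p under 0.05 over all genes). The 9 photoreceptor precursor genes summed to 656 to 778 against 352 to 404 TPM, with 0 called higher and 8 lower. The 8 ganglion cell genes summed to 235 to 241 against 148 to 171 TPM, although 4 were called higher and 2 lower. The 6 Muller glia genes summed to 2294 to 2723 against 1111 to 1193 TPM, with 1 called higher and 2 lower, so neither of these lower sums was shared by the whole class. The 8 amacrine and horizontal genes summed to 151 to 174 against 117 to 135 TPM, with 0 called higher and 3 lower. The 6 endothelial genes summed to 135 to 157 against 59.9 to 70.7 TPM. Of these, 4 were under 1 TPM, so Pecam1 and Kdr made up nearly all of the sum. The sums of the 5 bipolar genes overlapped. In bulk RNA, fewer cells of a type and less RNA per cell cannot be told apart, and the part of cell make-up in the shares was not tested. None of the 4 lens and 5 erythrocyte markers was among the genes joined to transcripts, which needed a mean of at least 5 normalised counts, and 7 of 8 microglia markers were below that or averaged under 1 TPM.

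A gene can give several transcripts through different start sites, alternative splicing and different polyadenylation sites. The transcripts of a gene can encode different proteins, differ only in their untranslated ends, or hold a premature stop that sends them to nonsense-mediated decay. In the developing retina, splicing programmes accompany the passage from progenitor to neuron, and RNA-binding families such as Ptbp, Rbfox, Nova and Elavl take part in them. Salmon, the program behind the deposited levels, divides reads that fit several transcripts of a gene among them with a statistical model. Whether a transcript listed at 0 had no reads, or had reads that were given to another transcript, cannot be told from these levels, so no counting limit was set on it.

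Start sites are the one source of transcripts for which sequence could be read here. RefSeq (GRCm38.p6) had promoter windows for 12 of the 16 members, 18 windows of 250 bases before a start in all, and 5 members had more than 1. Tsc22d3 and Bcar1 are shown as examples of members with separate annotated starts whose main transcripts were both present in most libraries. Tpbg and Cacnb3 also met these conditions and are not shown. The deposited levels do not say which transcript belongs to which start. The windows run 5′ to 3′ on the minus strand, with the Ikaros core motif TGGGAA, or its reverse complement TTCCCA, in capitals.
Tsc22d3 chrX:140542669-140542918: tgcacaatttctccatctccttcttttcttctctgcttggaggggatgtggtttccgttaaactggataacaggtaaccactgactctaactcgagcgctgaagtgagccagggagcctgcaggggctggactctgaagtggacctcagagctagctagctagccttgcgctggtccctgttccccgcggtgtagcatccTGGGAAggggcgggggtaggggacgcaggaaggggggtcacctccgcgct
Tsc22d3 chrX:140548572-140548821: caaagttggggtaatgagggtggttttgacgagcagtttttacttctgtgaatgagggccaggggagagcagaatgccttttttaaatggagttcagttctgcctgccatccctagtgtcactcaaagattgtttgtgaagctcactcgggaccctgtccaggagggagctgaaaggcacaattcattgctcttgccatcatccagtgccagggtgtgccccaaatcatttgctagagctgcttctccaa
Tsc22d3 chrX:140600523-140600772: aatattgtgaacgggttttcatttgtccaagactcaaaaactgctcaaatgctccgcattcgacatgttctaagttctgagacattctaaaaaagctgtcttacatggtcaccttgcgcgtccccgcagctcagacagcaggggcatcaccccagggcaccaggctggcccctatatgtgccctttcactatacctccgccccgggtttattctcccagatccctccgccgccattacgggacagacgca
Bcar1 chr8:111732137-111732386: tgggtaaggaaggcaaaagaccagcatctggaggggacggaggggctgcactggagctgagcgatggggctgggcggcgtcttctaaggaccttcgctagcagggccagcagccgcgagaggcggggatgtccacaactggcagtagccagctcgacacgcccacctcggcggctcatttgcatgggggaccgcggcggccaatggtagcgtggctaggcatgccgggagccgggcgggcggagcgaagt
Bcar1 chr8:111743850-111744099: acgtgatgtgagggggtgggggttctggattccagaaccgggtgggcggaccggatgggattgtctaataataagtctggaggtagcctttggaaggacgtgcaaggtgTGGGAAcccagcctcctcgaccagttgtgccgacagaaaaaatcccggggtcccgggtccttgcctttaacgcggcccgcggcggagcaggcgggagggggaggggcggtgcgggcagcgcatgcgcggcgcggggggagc
Of the 3 Tsc22d3 windows the first held 1 match, and of the 2 Bcar1 windows the second held 1. Over the members, 6 of 18 windows held the motif on either strand (33.3%), beside 7094 of 32851 windows of the same length in the whole table (21.6%). The count describes letters in a window and says nothing of binding.

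In the 13 genes with a lower leading share the mean change ran from -49.3 percentage points in Tusc3 to -26.4 in Tsc22d3. In the 3 with a higher share it was 25.7 points in Espl1, 30.9 in Cacnb3 and 34.8 in Nedd8. For each member the transcript with the largest change in the opposite direction is called its partner. The transcript that gained share was shorter than the one that lost it in 8 members and longer in 8. The partner's share did not overlap between the groups in 12 members. In 10 of the 16, leading transcript and partner differed in length by under 5%, and in 9 of the 16 one of the pair had a share under 0.05% in at least 1 library. How far the shares of such pairs rest on the division of reads that fit both transcripts was not tested, and the printed shares may reflect it. The mean length of the transcripts weighted by TPM overlapped between the groups in 12 members. It was shorter in all Ikzf1 libraries in B4galt5, at 4090 bases in the controls and 2905 with Ikzf1. In Hspa2 it was also shorter, but only from 2526 to 2525 bases, as its 2 transcripts differ by 2 bases. It was longer in Espl1, from 3550 to 4588 bases, and in Nedd8, from 649 to 779 bases.

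**Figure D1:**
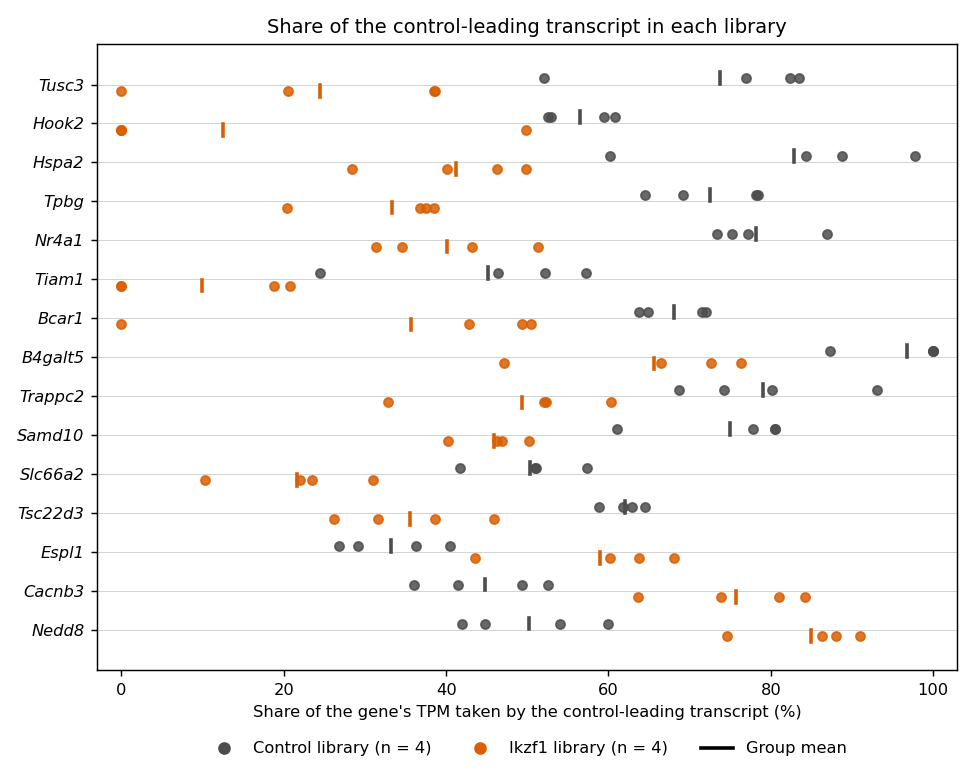
Share of each gene's TPM taken by the control-leading transcript, in percent on the horizontal axis, for 15 of the genes on the vertical axis. Grey points are the 4 controls, orange points the 4 Ikzf1 libraries and vertical ticks the group means. The rule kept genes whose colours do not overlap, and the gap between the nearest libraries runs from 2.70 points in Hook2 to 26.0 points in Tpbg.

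Tusc3, Tpbg, B4galt5 and Trappc2 act in the secretory pathway or at the cell surface. Tusc3 (ENSMUSG00000039530, GRCm38 chromosome 8, 39005845 to 39165114, plus strand) encodes a subunit of the oligosaccharyltransferase that attaches sugar chains to new proteins in the endoplasmic reticulum. Its leading transcript, ENSMUST00000167992.7 (1511 bases), held 77.0, 83.5, 82.3 and 52.1% of the gene in control replicates 1 to 4 and 20.6, 0, 38.6 and 38.5% in the Ikzf1 replicates. All controls were above 50% and all Ikzf1 libraries below 40%, with a listed 0 in Ikzf1 replicate 2. The mean was 73.7% ± 14.7 and 24.4% ± 18.4 (SD, n = 4 each), a change of -49.3 percentage points (SE 11.8). The partner ENSMUST00000209440.1 (1535 bases) took 16.2, 7.82, 10.2 and 40.9% in the controls and 73.4, 94.2, 54.7 and 54.9% with Ikzf1, so the pair kept 92.5% and 93.7% of the gene. Control replicate 4 stood nearest to the Ikzf1 libraries for both transcripts. The gene total was 99.1 ± 1.93 TPM in the controls and 85.7 ± 5.02 TPM with Ikzf1.

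Tpbg (ENSMUSG00000035274, GRCm38 chromosome 9, 85842380 to 85847040, plus strand) encodes the trophoblast glycoprotein 5T4, a membrane protein with leucine-rich repeats. Its leading transcript ENSMUST00000098500.4 (3481 bases) held 69.2, 78.4, 64.5 and 78.1% in the controls and 20.4, 36.8, 37.6 and 38.5% with Ikzf1. The 2 groups were 26.0 points apart at their nearest libraries, the widest gap among the members. The partner ENSMUST00000006559.13 (3603 bases) held 19.3, 15.8, 17.5 and 13.7% in the controls and 79.6, 60.9, 45.0 and 59.3% with Ikzf1. In TPM the leading transcript averaged 14.2 ± 1.42 TPM in the controls and 5.94 ± 1.86 TPM with Ikzf1, and the partner 3.25 ± 0.427 TPM and 10.6 ± 1.78 TPM. Both transcripts thus changed places as the leading one in all 4 Ikzf1 libraries.

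B4galt5 (ENSMUSG00000017929, GRCm38 chromosome 2, 167298444 to 167349183, minus strand) encodes a galactosyltransferase that makes lactosylceramide in the Golgi. Its leading transcript ENSMUST00000109221.8 (4210 bases) held 100, 100, 87.3 and 100% in the controls and 47.1, 66.4, 76.3 and 72.6% with Ikzf1. Its TPM was nevertheless not lower in the Ikzf1 libraries, at 13.4, 14.4, 15.2 and 14.8 against 12.6, 12.8, 11.7 and 12.3 in the controls. Of the lost share, 81.8% went to the short partner ENSMUST00000149698.1 (425 bases), which had 0, 0, 6.58 and 0 estimated counts in the controls and 39.3, 27.4, 19.8 and 21.4 with Ikzf1. TPM divides by length, so a few reads on a short transcript weigh as much as many on a long one. Measured as a share of estimated counts, the leading transcript went from 99.8% to 96.5%, a change of -3.29 points in place of -31.2.

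Trappc2 (ENSMUSG00000079317, GRCm38 chromosome X, 166440574 to 166453140, plus strand) encodes a subunit of the TRAPP complexes that tether transport vesicles. Its leading transcript ENSMUST00000116495.7 (1613 bases) held 93.1, 68.7, 80.1 and 74.3% in the controls and 52.3, 32.8, 52.0 and 60.3% with Ikzf1. By mean share it led in both groups. The partner ENSMUST00000112194.1 (1418 bases) was listed at 0 in control replicates 1 and 3, held 25.2% and 19.6% in the other two, and 36.6, 53.6, 39.8 and 31.9% in the Ikzf1 libraries. The gene total was 21.2 ± 0.324 TPM in the controls and 21.7 ± 0.775 TPM with Ikzf1. Without Ikzf1 replicate 2 the change of the leading share was -24.2 points in place of -29.7, under the limit of the rule. Trappc2 overlaps Ofd1 on the opposite strand in the deposited annotation, and whether strand was used in counting is not stated.

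Cacnb3 (ENSMUSG00000003352, GRCm38 chromosome 15, 98630840 to 98644529, plus strand) encodes the beta 3 subunit of voltage-gated calcium channels, which helps bring the pore subunit to the membrane. Its leading transcript ENSMUST00000230490.1 (2477 bases) held 36.0, 52.5, 49.3 and 41.5% in the controls and 84.2, 73.9, 63.6 and 81.0% with Ikzf1. The higher share came with a lower gene, at 40.3, 39.9, 37.5 and 38.0 TPM in the controls and 13, 14.4, 13.3 and 15.1 TPM with Ikzf1. The leading transcript itself was 17.4 ± 2.88 TPM in the controls and 10.6 ± 1.56 TPM with Ikzf1, while the partner ENSMUST00000109150.8 (2513 bases) was 11.3 ± 4.18 TPM and 1.35 ± 1.37 TPM. Both transcripts were lower in mean, the partner by the larger factor. The partner's shares overlapped, with 40.7, 17.1, 24.5 and 33.3% in the controls and 0, 18.2, 18.3 and 2.37% with Ikzf1.

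Bcar1, Tiam1 and Hook2 encode proteins of signalling and the cytoskeleton. Bcar1 (ENSMUSG00000031955, GRCm38 chromosome 8, 111710474 to 111743809, minus strand) encodes p130Cas, a docking protein of focal adhesions that is phosphorylated when integrins bind the matrix. Its leading transcript ENSMUST00000212349.1 (3116 bases) held 63.8, 64.9, 72.0 and 71.6% in the controls and 42.9, 0, 49.3 and 50.5% with Ikzf1. Ikzf1 replicate 2 was listed at 0 and the other 3 Ikzf1 libraries lay between 42.9 and 50.5%. Without that library the change was -20.5 points in place of -32.4, under the limit of the rule. The partner ENSMUST00000166232.3 (3142 bases) was 30.7, 30.9, 23.3 and 25.9 TPM in the controls and 19.4, 36.4, 18.7 and 19.2 TPM with Ikzf1. The leading transcript was 61.8, 68.1, 71.1 and 78.5 TPM and 15.6, 0, 20.2 and 22.0 TPM. The summed pair was 97.6 TPM in the controls and 37.9 TPM with Ikzf1, with a coefficient of variation of 7.36% over the 4 Ikzf1 libraries against 69.3% for the leading transcript alone.

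Tiam1 (ENSMUSG00000002489, GRCm38 chromosome 16, 89787111 to 90143769, minus strand) encodes an exchange factor that activates the small GTPase Rac. Its leading transcript ENSMUST00000002588.10 (7289 bases) held 57.3, 52.2, 24.4 and 46.5% in the controls and 0, 0, 20.8 and 18.8% with Ikzf1. The groups came within 3.63 points of each other, between control replicate 3 and Ikzf1 replicate 3. Its partner ENSMUST00000163370.7 (7255 bases) overlapped between the groups, with 0, 0, 22.6 and 3.91% in the controls and 47.6, 35.5, 20.3 and 30.2% with Ikzf1. Tiam1 spread its level over more transcripts than most members, and the pair made up 51.7% of the gene in the controls and 43.3% with Ikzf1. The 2 transcripts differ by 34 bases in length.

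Hook2 (ENSMUSG00000052566, GRCm38 chromosome 8, 84990603 to 85003349, plus strand) encodes an adaptor between dynein motors and their cargo on microtubules. Its leading transcript ENSMUST00000064495.7 (2580 bases) held 60.8, 59.5, 52.6 and 53.0% in the controls and 0, 49.9, 0 and 0% with Ikzf1. The partner ENSMUST00000209764.1 (2516 bases) was listed at 0 in all 4 controls and in Ikzf1 replicate 2, and held 53.8%, 52.6% and 47.8% in Ikzf1 replicates 1, 3 and 4. In each library 1 of the 2 was listed at 0 and the other held 47.8 to 60.8% of the gene. In estimated counts the leading transcript had 309, 244, 264 and 262 in the controls, 234 in Ikzf1 replicate 2 and 0 in the other 3 Ikzf1 libraries. The summed pair was 8.12 TPM in the controls and 6.25 TPM with Ikzf1. Another transcript, ENSMUST00000210326.1 (3080 bases), held 43.6% and 48.4% in mean and was thereby the leading one by mean share in the Ikzf1 libraries.

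**Figure D2:**
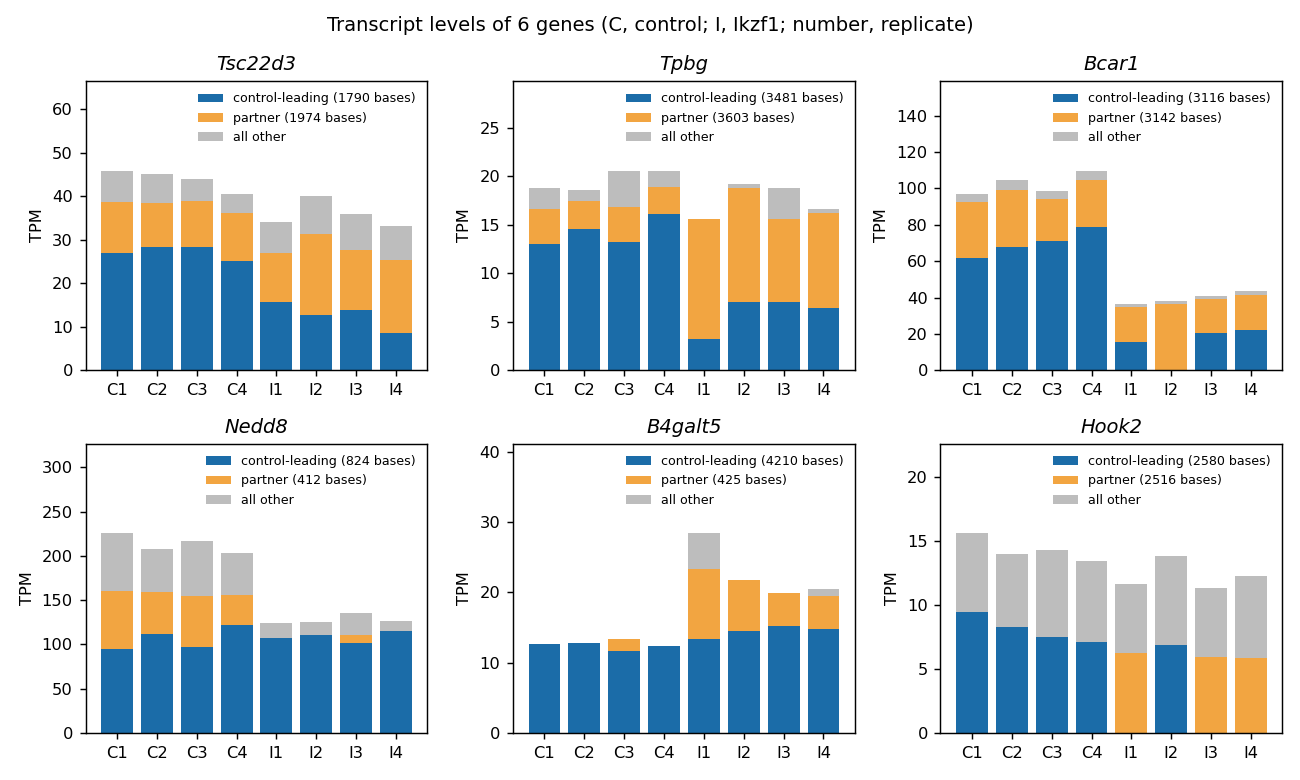
TPM of the leading transcript (blue), its partner (orange) and all other transcripts of the gene (grey), stacked, in control replicates (C1 to C4) and Ikzf1 replicates (I1 to I4) for 6 genes. In Tpbg orange exceeds blue in all Ikzf1 libraries and in no control, in Hook2 and Bcar1 Ikzf1 replicate 2 departs from the other 3, and in B4galt5 the blue part is no lower while orange is added.

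Nr4a1 and Tsc22d3 encode regulators of transcription. Nr4a1 (ENSMUSG00000023034, GRCm38 chromosome 15, 101254269 to 101274795, plus strand) is an orphan nuclear receptor and an immediate early gene, induced within a short time of growth signals or depolarisation. Its leading transcript ENSMUST00000023779.7 (2477 bases) held 86.9, 75.2, 73.4 and 77.1% in the controls and 31.3, 34.5, 51.3 and 43.2% with Ikzf1. The partner ENSMUST00000228985.1 (2553 bases) held 5.78, 21.8, 23.4 and 21.7% in the controls and 49.3, 60.7, 46.8 and 48.2% with Ikzf1. The gene was lower in every Ikzf1 library, at 10.2, 10.1, 10.4 and 9.58 TPM against 16.8, 16.8, 16.6 and 16.3 TPM in the controls. Its Ikzf1 mean of 10.1 TPM lay just above the minimum of the rule, and without Ikzf1 replicate 3 the gene was no longer eligible. The leading transcript had 13 ± 1.06 TPM and 4.04 ± 0.949 TPM, the partner 3.01 ± 1.37 TPM and 5.16 ± 0.669 TPM.

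Tsc22d3 (ENSMUSG00000031431, GRCm38 chromosome X, 140539528 to 140600659, minus strand) encodes GILZ, a leucine zipper protein induced by glucocorticoids. Its leading transcript ENSMUST00000112995.2 (1790 bases) held 58.9, 62.9, 64.5 and 61.8% in the controls, the narrowest control range among the members with 5.59 points. In the Ikzf1 libraries it held 45.9, 31.6, 38.6 and 26.1%. The partner ENSMUST00000055738.11 (1974 bases) held 25.5, 22.5, 24.4 and 27.5% in the controls and 33.2, 46.5, 38.4 and 50.6% with Ikzf1. Another transcript, ENSMUST00000112996.8 (1552 bases), also held more in every Ikzf1 library, 18.2, 20.9, 22.3 and 22.1% against 14.5, 14.7, 10.9 and 9.12%. The leading transcript stayed ahead of the partner in Ikzf1 replicates 1 and 3 and behind it in replicates 2 and 4. Without Ikzf1 replicate 4 the change was -23.3 points in place of -26.4. The deposited annotation places a processed pseudogene, AL683809.1, on the same strand within the gene.

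Hspa2, Nedd8 and Espl1 act in protein folding, protein turnover and cell division. Hspa2 (ENSMUSG00000059970, GRCm38 chromosome 12, 76404176 to 76406938, plus strand) encodes a chaperone of the HSP70 family best known from the testis. Its 2 transcripts, ENSMUST00000219555.1 (2526 bases) and ENSMUST00000080449.6 (2524 bases), differ by 2 bases in length and together make up the whole gene. The leading one held 84.4, 60.2, 88.8 and 97.8% in the controls and 40.1, 28.4, 49.9 and 46.3% with Ikzf1. The gene total was 14.2 ± 0.775 TPM in the controls and 14.3 ± 1.43 TPM with Ikzf1. Control replicates 2 and 4 marked the ends of a range of 37.6 points within the controls, the widest control range among the members.

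Nedd8 (ENSMUSG00000010376, GRCm38 chromosome 14, 55662263 to 55672124, minus strand) encodes the ubiquitin-like protein that is attached to cullins and activates their ubiquitin ligases. It was the most abundant member, at 213 ± 9.72 TPM in the controls and 128 ± 5.33 TPM with Ikzf1. Its leading transcript ENSMUST00000010520.9 (824 bases) held 42.0, 54.1, 44.8 and 60% in the controls and 86.4, 88.1, 74.6 and 91.0% with Ikzf1. The level of that transcript was 94.6, 112, 97.2 and 122 TPM in the controls and 107, 111, 101 and 115 TPM with Ikzf1, 2 ranges that overlap. By edgeR, which scales by library, the log2 fold change of the leading transcript was 0.26 (SE 0.09), not called. Short transcripts were lower. The partner ENSMUST00000227250.1 (412 bases) was 65.8, 47.3, 57.4 and 34.0 TPM in the controls and 0, 0, 9.13 and 0 TPM with Ikzf1, and ENSMUST00000163750.7 (514 bases) went from 19.5% to 8.37% of the gene without overlap. As a share of estimated counts the leading transcript changed by 23.1 points, under the limit. Nedd8 overlaps Gmpr2 on the opposite strand.

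Espl1 (ENSMUSG00000058290, GRCm38 chromosome 15, 102296266 to 102324357, plus strand) encodes separase, the protease that cuts cohesin so that sister chromatids can part. Its leading transcript ENSMUST00000064924.5 (6658 bases) held 36.3, 40.5, 26.8 and 29.2% in the controls and 68.1, 63.7, 60.2 and 43.6% with Ikzf1. Control replicate 2 and Ikzf1 replicate 4 came within 3.08 points of each other. The partner ENSMUST00000230116.1 (434 bases) had 0, 12.1, 18 and 24.2 estimated counts in the controls and was listed at 0 in all Ikzf1 libraries, and short transcripts like it weigh heavily in TPM. As a share of estimated counts the leading transcript went from 63.8% to 86.1%. Espl1 was the member nearest the limit and left the set when control replicate 3 or 4 or Ikzf1 replicate 1 or 2 was left out, with changes of 23.6, 24.4, 22.6 and 24.1 points.

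Samd10 and Slc66a2 are less well described. Samd10 (ENSMUSG00000038605, GRCm38 chromosome 2, 181595218 to 181599212, minus strand) is named for its sterile alpha motif, a fold found in many signalling proteins. Its leading transcript ENSMUST00000060173.8 (2164 bases) held 61.1, 80.6, 77.9 and 80.5% in the controls and 40.3, 46.9, 46.3 and 50.2% with Ikzf1. The partner ENSMUST00000183836.1 (2131 bases) held 28.4, 18.1, 7.56 and 8.88% and 51.0, 49.9, 46.4 and 36.0%, which left both transcripts about level in the Ikzf1 libraries. Control replicate 1 stood apart from the other controls for the leading share. Samd10 overlaps Prpf6, which encodes a splicing factor, on the opposite strand.

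Slc66a2 (ENSMUSG00000034006, GRCm38 chromosome 18, 80253292 to 80292725, plus strand) belongs to a family of membrane transporters with PQ-loop repeats. Its leading transcript ENSMUST00000131780.7 (2080 bases) held 51.1, 57.4, 41.8 and 50.9% in the controls and 10.2, 30.9, 23.5 and 22.0% with Ikzf1. In level it was 5.71, 6.98, 5.68 and 7.67 TPM in the controls and 2.09, 6.67, 5.87 and 4.78 TPM with Ikzf1, 2 ranges that overlap. The partner ENSMUST00000129043.7 (1864 bases) was 4.89, 3.50, 5.97 and 4.80 TPM in the controls and 16.0, 10.6, 16.0 and 12.7 TPM with Ikzf1. Every Ikzf1 library was above every control for the partner, and the gene total was 13 ± 1.69 TPM in the controls and 22.1 ± 1.96 TPM with Ikzf1. Without Ikzf1 replicate 1 the change of the leading share was -24.8 points in place of -28.6.

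The members differed from the rest of the eligible genes in level and in the spread of the leading share. That spread comes from the values that the rule used, so the comparison is a description. Their median gene level in the controls was 19.8 TPM, beside 46.9 TPM in the 8215 other eligible genes with 2 or more transcripts. The median standard deviation of the leading share, pooled over both groups, was 9.51 points in the members and 4.48 points in the others. In 8 of 16 members (50.0%) the leading share ranged over 25 points or more within 1 of the groups, beside 973 of the others (11.8%). Within the members alone, the sum of leading transcript and partner was steadier than the leading transcript. Its median coefficient of variation was 5.44% in the controls and 8.52% with Ikzf1, against 12.5% and 26.5% for the leading transcript. The gene totals had 5.44% and 8.25%. The pair made up most of the gene in most members, so a spread near that of the gene total is built in. No such values are given for the other genes. A library of a member held 265 to 4845 estimated counts for the whole gene. These values stand beside the shares, and their part in the selection was not tested.

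Over all 8824 eligible genes, 522 (5.92%) had leading shares without overlap at any size, 275 of them lower (3.12%) and 247 higher (2.8%). A change of at least 25 points, with or without overlap, was found in 32 (0.363%), so 16 genes with as large a change were left out for overlapping values. Among the other eligible genes with 2 or more transcripts the median absolute change was 2.57 points, the 95th percentile was 11.3 points, and the leading share was lower in mean in 48.2%. Just inside the limit were Espl1, Tsc22d3 and Slc66a2, with the values given above. Just outside it were Ankfy1, an effector of endosome traffic, with 75.3% ± 6.63 in the controls and 50.3% ± 4.09 with Ikzf1, Zfp2, a zinc finger gene, with 66.3% ± 14.1 in the controls and 41.6% ± 9.30 with Ikzf1, and Rabl3, a small GTPase of the Rab family, with 79.5% ± 4.28 in the controls and 55.0% ± 5.56 with Ikzf1 (SD, n = 4 each).

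**Figure D3:**
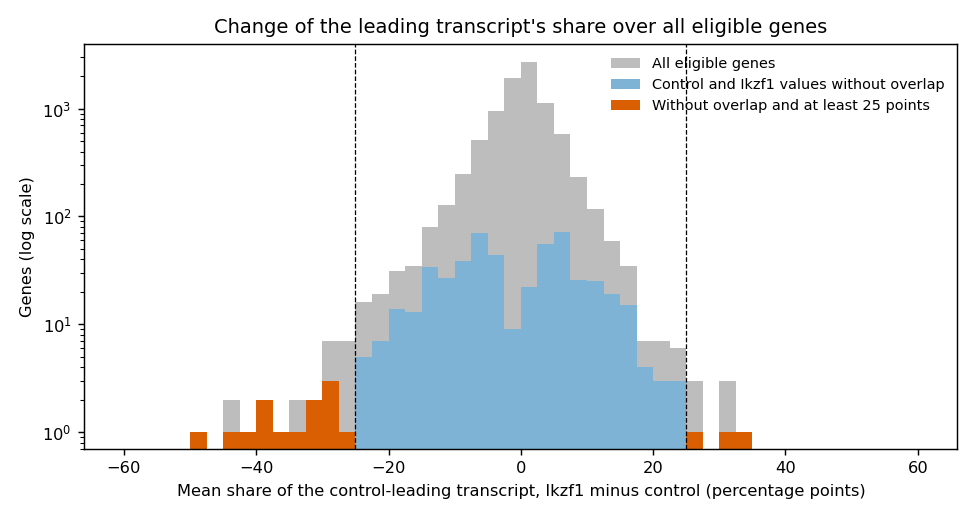
Change of the mean share of the control-leading transcript, in percentage points, over all 8824 eligible genes, with the number of genes on a log scale. Grey bars are all eligible genes, blue bars the 522 without overlap between the groups and orange bars the 16 members. Dashed lines mark the limits of 25 points, and 13 members lie beyond the lower one and 3 beyond the upper one.

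Most members also differed in gene total. Estimated counts summed to genes were compared with edgeR's quasi-likelihood test with Benjamini-Hochberg adjustment over 15656 genes, of which 59.1% had an adjusted p under 0.05 (29.8% lower, 29.3% higher). By that measure 5 members were lower, 7 higher and 4 not called, a description since the same libraries chose the genes. The lower ones were Cacnb3 with a log2 fold change of -1.22 (SE 0.06), Bcar1 with -1.14 (SE 0.05), Nr4a1 with -0.56 (SE 0.08), Tiam1 with -0.42 (SE 0.05) and Nedd8 with -0.16 (SE 0.05). Slc66a2 with 0.95 (SE 0.09) and B4galt5 with 0.49 (SE 0.06) were the highest, followed by Samd10 with 0.34 (SE 0.08), Hspa2 with 0.22 (SE 0.08), Espl1 with 0.20 (SE 0.07), Trappc2 with 0.20 (SE 0.07) and Tpbg with 0.16 (SE 0.07). Those not called included Tusc3 with 0.04 (SE 0.05), Hook2 with -0.01 (SE 0.08) and Tsc22d3 with -0.07 (SE 0.07). The 4 largest share changes, in Tusc3, Hook2, Hspa2 and Tpbg, thus came with gene totals that differed by 0.22 or less on the log2 scale. Several small totals lost their call when a library was left out. Hspa2 was at 0.20 without control replicate 2 and 0.16 without Ikzf1 replicate 4, Trappc2 at 0.185 without control replicate 2 and 0.18 without Ikzf1 replicate 3, and Espl1 at 0.16 without control replicate 3. Tpbg lost it without control replicate 1, 2 or 3 or Ikzf1 replicate 2, with values of 0.098 to 0.155, and also under DESeq2 and with replicate numbers as a block.

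A gene whose transcripts differ in length can gain or lose counts through its make-up alone, so the totals were also fitted with an offset for the mean transcript length. With the offset 5 members were lower and 5 higher, where 25.5% and 24.9% of all genes were. B4galt5 then had 1.05 (SE 0.10), Nedd8 -0.51 (SE 0.06) and Espl1 -0.17 (SE 0.11), which turned the direction of Espl1. The authors' deposited table, whose means match counts corrected for length, gives 1.03 for B4galt5, -0.50 for Nedd8 and -0.17 for Espl1. Tpbg was not called with the offset, at 0.07 (SE 0.08). Tiam1 kept its call at a smaller size, -0.26 (SE 0.05) in place of -0.42 (SE 0.05), with -0.26 in the authors' deposited table.

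At the level of transcripts, 46785 were fitted with edgeR and 14.2% had an adjusted p under 0.05 (7.64% lower, 6.6% higher). The fit took estimated counts as observed, so uncertainty in Salmon's division of reads is not in its standard errors or adjusted p-values. Of the 16 leading transcripts 3 were lower, 2 higher and 11 not called, while the rule had chosen all 16 for separate shares. Those lower were Nr4a1 with a log2 fold change of -1.46 (SE 0.18), Tpbg with -1.04 (SE 0.24) and Tsc22d3 with -0.87 (SE 0.18). Those higher were Espl1 with 0.63 (SE 0.11) and B4galt5 with 0.45 (SE 0.06). Of the partners 6 were higher, 0 lower and 8 not called. Among the 6 were Tpbg with 1.93 (SE 0.16), Tusc3 with 1.90 (SE 0.52), Samd10 with 1.86 (SE 0.44), Slc66a2 with 1.75 (SE 0.21) and Tsc22d3 with 0.69 (SE 0.15). The partners of Hook2, listed at 0 in the controls, and of Espl1, listed at 0 in the Ikzf1 libraries, were not tested.

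In Tpbg and Tsc22d3 both sides of the exchange were called, in CPM (read counts scaled to library size) of 24.9 ± 2.60 against 12.1 ± 3.80 for the leading and 5.90 ± 0.754 against 22.4 ± 3.73 for the partner transcript of Tpbg (control against Ikzf1, SD, n = 4 each). For Tsc22d3 the leading transcript had 23.4 ± 1.26 against 12.8 ± 3.16 and the partner 10.5 ± 0.694 against 16.8 ± 3.37. Both calls in a gene draw on the same division of shared reads, so they are not independent. In Tusc3, Samd10 and Slc66a2 only the partner was called, and in Nr4a1, Espl1 and B4galt5 only the leading transcript. Tusc3, Hook2, Tiam1 and Bcar1, whose leading transcripts were listed at 0 in 1 to 3 Ikzf1 libraries, had fold changes of -1.58 (SE 0.97), -2.03 (SE 1.75), -2.43 (SE 1.35) and -2.05 (SE 0.94), with the widest errors among the leading transcripts.

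**Figure D4:**
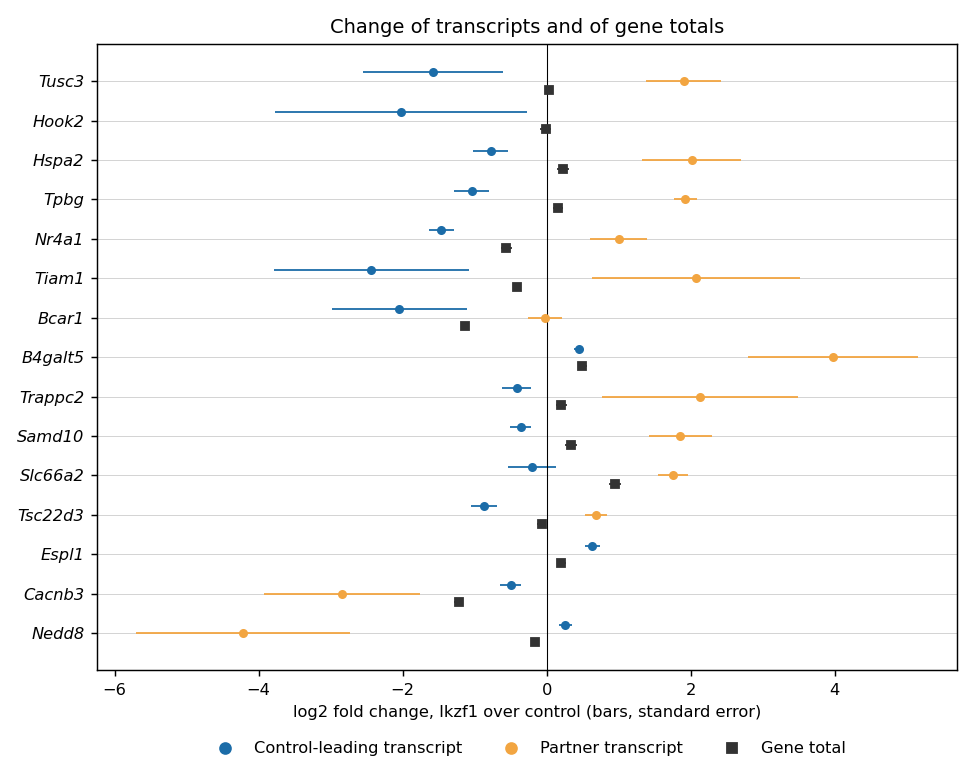
log2 fold change of the leading transcript (blue), its partner (orange) and the gene total (black squares), Ikzf1 over control, with standard errors as bars, for 15 of the genes on the vertical axis. Positive values are higher in the Ikzf1 libraries. Gene totals lie between -1.22 and 0.95 with short bars, while the transcripts reach -4.22 in the partner of Nedd8 and 3.98 in that of B4galt5 with long ones; the partners of Hook2 and Espl1 have no point.

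Besides the choice of a start site, splicing regulators, polyadenylation factors and nonsense-mediated decay are known to shape which transcripts of a gene are found, and the genes of these 3 groups were examined in the same fit. Of 66 splicing regulators tested, 22 rose and 24 fell (69.7% called, beside 59.1% of all genes), with a median log2 fold change of -0.04 against 0.00 over all genes. Elavl2, a neuronal RNA-binding protein, was at 19.5 ± 0.957 CPM in the controls and 44.4 ± 4.88 CPM with Ikzf1, a log2 fold change of 1.19 (SE 0.07, edgeR adjusted p 4.1e-14). Celf5, of the CELF family of splicing regulators, was at 20.7 ± 2.78 CPM in the controls and 46.4 ± 5.82 CPM with Ikzf1, a log2 fold change of 1.17 (SE 0.10, edgeR adjusted p 2.26e-07). Muscleblind genes went in both directions. Mbnl3 was at 5.05 ± 0.319 CPM in the controls and 11.2 ± 1.21 CPM with Ikzf1, with 1.16 (SE 0.11, edgeR adjusted p 8.28e-10), and Mbnl2 at 204 ± 6.52 CPM in the controls and 97.6 ± 6.24 CPM with Ikzf1, with -1.06 (SE 0.05, edgeR adjusted p 4.74e-17). Of the 46 called changes in this group 32 were under 0.5 in size, beside 5063 of 9254 over all genes.

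Of 20 polyadenylation factors 4 rose and 4 fell (40%, median 0.03). Pcf11, which acts in termination at the 3' end, was at 229 ± 12.9 CPM in the controls and 159 ± 1.73 CPM with Ikzf1, with -0.52 (SE 0.04, edgeR adjusted p 3.82e-11). The subunits of the cleavage stimulation factor were split, with Cstf1 at 0.21 (SE 0.06, edgeR adjusted p 0.00229), Cstf2t at 0.20 (SE 0.04, edgeR adjusted p 0.000191) and Cstf3 at -0.16 (SE 0.05, edgeR adjusted p 0.00723). Of 19 genes of nonsense-mediated decay, which include 3 described targets besides the factors, 4 rose and 7 fell (57.9%, median -0.08). Gadd45a, a stress gene and described target of the pathway, was at 26.8 ± 1.74 CPM in the controls and 71.4 ± 3.84 CPM with Ikzf1, with 1.41 (SE 0.06, edgeR adjusted p 9.38e-18). Smg5 was at 0.38 (SE 0.05, edgeR adjusted p 5.07e-08), Smg9 at -0.25 (SE 0.07, edgeR adjusted p 0.00445) and Upf3b at -0.24 (SE 0.06, edgeR adjusted p 0.00112). The shares called in these lists stand beside the share over all genes, and no list was tested as a set.

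**Figure D5:**
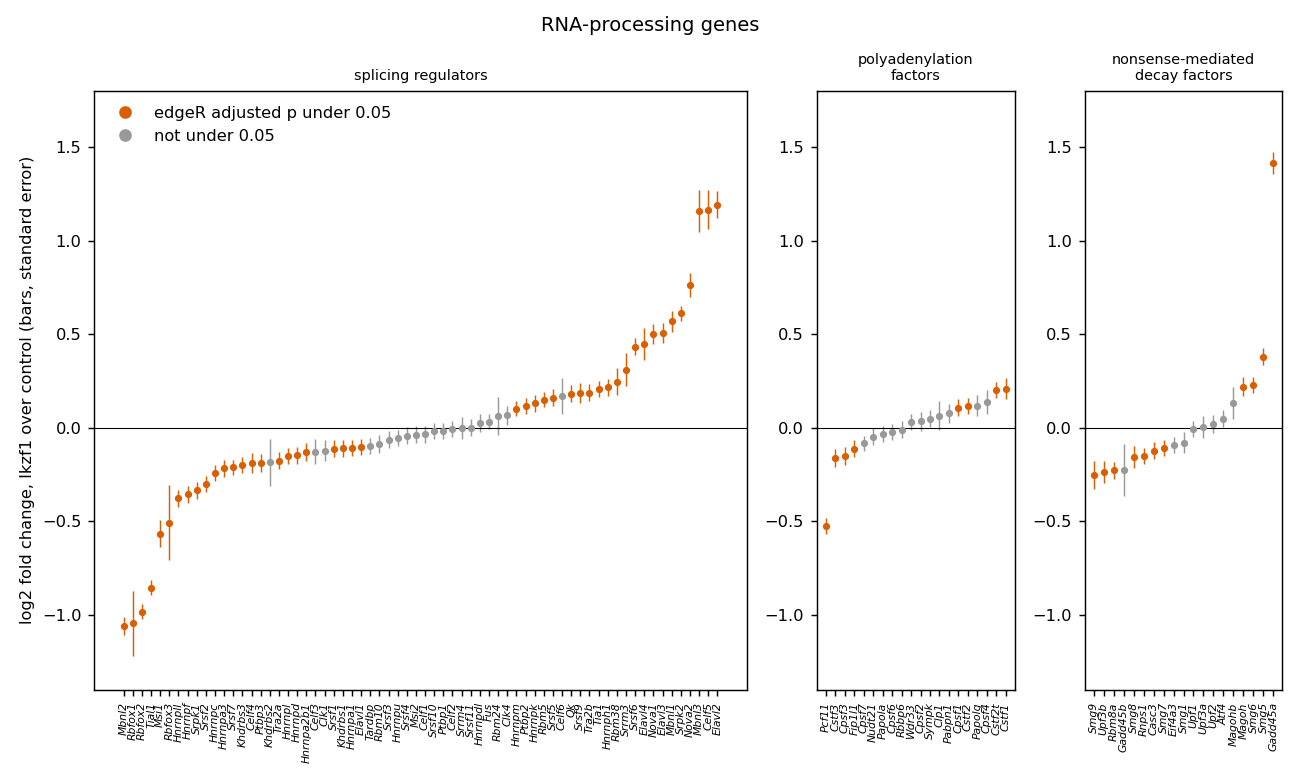
log2 fold change of each gene of 3 RNA-processing lists, Ikzf1 over control, with standard errors as bars, ordered by size within a list. Orange points had an edgeR adjusted p under 0.05 and grey points did not. Among the splicing regulators 5 genes exceed 1 in size, Gadd45a does so in the decay list, and most other genes lie within 0.5 of no change.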

How the data were processed

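RNA from 4 control and 4 Ikzf1 samples was analysed, with groups taken from the sample titles. The deposited transcript tables gave estimated counts and TPM for each transcript, per the file headers, and the authors obtained both from Salmon, per the submitters' processing notes. Versions, index, annotation release and use of strand in counting are not given in the sources used here. The authors' deposited comparison table, made with DESeq2 per the labels, gave a signal per gene (the mean normalised count over the 8 libraries), log2 fold changes and gene positions. The positions were taken as GRCm38 since all 16 members had an end within 5000 bases of their RefSeq GRCm38.p6 entry. The CUT&RUN libraries were not used here, because their peaks are on mm9.

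The transcript tables name no genes. Runs of up to 60 neighbouring transcripts were matched to the mean normalised count of each gene, computed as the deposited table does, within a relative tolerance of 5e-09 (3e-08 in a second pass). The search covered 16815 genes whose mean reached 5, and 16810 were joined. With means moved slightly, 0.506% still found a run. In simulated data of 18812 genes, with means computed as in the search, 100.0% of joins to a single run at 5e-09 were correct. The second pass, which joined 235 genes, was not simulated.

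Shares were computed per library from TPM. Summed estimated counts were rounded, filtered with filterByExpr, scaled by TMM and compared with edgeR 4.0.16 (quasi-likelihood, two-sided, no covariate, Benjamini-Hochberg over all features, threshold 0.05), for genes and for transcripts. On simulated counts of 15673 genes, 90.5% of 200 genes changed by a factor of 2 were recovered and 2.16% of calls were false. For 46926 transcripts and a factor of 4 the values were 48.0% and 2.08%. Each transcript was drawn on its own there, so errors from dividing reads among transcripts are not covered by these values. Alternatives were DESeq2 1.42.0, other limits, shares of estimated counts, a length offset, a replicate block and leaving out each library. Replicates are labelled as biological, and whether they came from separate litters is not stated.

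The members and the gene lists were chosen with earlier results of these data known. The values of 1 member are not reported here and it is left out of the figures that name genes, while the counts include it. Named genes were the other members, the 3 genes nearest the limit on each side, the 4 called genes of largest change in each of 3 RNA-processing lists, and Ikzf1.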

Additional observations from a re-analysis of the deposited data

Results flagged for a closer look

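In 5 of 64 groups of 4 libraries, 1 library stood apart from the other 3 by more than Dixon's 95% limit on the gap over the range. Chance flags about 1 in 20 groups of values with a normal spread. Shares listed at 0 or 100%, as in Hook2 and B4galt5 below, are not such values, so that rate need not hold here. All values are shares of the leading transcript. Hook2 had 49.9% in Ikzf1 replicate 2 and was listed at 0 in the other Ikzf1 libraries. Bcar1 was listed at 0 in Ikzf1 replicate 2, with 42.9 to 50.5% in the others. Tpbg had 20.4% in Ikzf1 replicate 1, with 36.8 to 38.5% in the others. B4galt5 had 87.3% in control replicate 3 and 100% in the other controls. Samd10 had 61.1% in control replicate 1, with 77.9 to 80.6% in the others.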

How the results depend on the processing

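The number of genes that met the rule depended on its limits. It was 27 with a minimum of 5 TPM, 6 with 20 TPM, 113 with no minimum, 34 with a limit of 20 points, 11 with 30 points, 19 with shares of estimated counts and 18 without transcripts under 5% of the gene. Shares of counts kept 13 of the 16 members and lost B4galt5, Espl1 and Nedd8. Leaving out 1 library gave 18 to 27 genes, in part because fewer values overlap by construction, and kept 13 to 16 of the members. Under shares of counts and without any 1 library the direction of each member's share change was kept.

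Transcripts called numbered 6662 by edgeR, 10531 by DESeq2, 3704 at an adjusted p of 0.01 and 5076 to 5564 without 1 library. The cause of the gap between the tools was not tested. Genes called numbered 9254, with 7749 to 9305 over the alternatives. With replicate numbers as a block, 3627 transcripts and 8928 genes were called. As a look for pairing, same-numbered samples correlated at -0.116, -0.0478, 0.0569 and 0.0162. These values do not describe how alike the libraries were in level. Control replicates 3 and 4 correlated best with their own number, and 1 and 2 with another number. The numbers were not taken as pairs in the main fit. The log2 fold change of Hook2, near 0, reversed to 0.0009 with the length offset and ranged from -0.0729 to 0.0305 without 1 library, above 0 without control replicate 1, Ikzf1 replicate 1 or Ikzf1 replicate 3. That of Espl1 reversed to -0.17 with the offset. The calls of Hspa2, Tpbg, Trappc2 and Espl1 at the gene level were lost when at least 1 library was left out.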
